A study of Caenorhabditis elegans with 78 samples.

Results

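In Caenorhabditis elegans larvae, 277 of 10328 sites of histone H3 trimethylated at lysine 4 (H3K4me3) carried a peak in at least 2 of 3 mutants and were nearly empty in wild type. H3K4me3 peak lists of 16 libraries were merged into sites wherever peaks overlapped, and a peak sharing 1 bp or more with a site counted as a call there. A site was gained in a mutant when at least 3 of its 4 lists and at most 1 of 4 wild-type lists called it. The 277 sites, 2.68% of all, were gained in at least 2 mutants. They were thus chosen by their H3K4me3 calls in mutants against wild type, and calls, folds and widths from that contrast are given as a description with no test.

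The series holds 78 chromatin immunoprecipitation sequencing samples, of which 32 peak lists were used, 16 of them for H3K4me3 and as many for H3K9me2, in which lysine 9 of histone H3 is dimethylated. Each mark had 2 replicate libraries at each of 2 temperatures, 20 and 26 °C, for each of 4 genotypes. Besides wild type (N2) there were 3 single mutants, each represented by 1 allele: n744 of lin-15B, n745 of lin-35 and n758 of lin-37. Every library came from whole first-stage (L1) larvae that had hatched without food, and cultures for 26 °C were moved there from 20 °C as fourth-stage larvae of the parent generation. A peak present in few cells and a weak peak in many cells cannot be told apart in whole larvae. The labels do not say whether replicates came from separate cultures. A p-value therefore measures only how far these libraries spread, and that spread may be technical.

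H3K4me3 is a mark of active promoters, and H3K9me2 is a mark of repressed chromatin that in this worm is richest on chromosome arms. The synMuv B genes encode nuclear regulators that keep germline genes silent in somatic tissue, and L1 larvae are almost entirely somatic. LIN-35 is the retinoblastoma-like protein of the worm, LIN-37 belongs with it to the repressor complex DREAM, and LIN-15B carries a THAP domain and acts in the same class.

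H3K4me3 lists held 5421 to 8412 peaks and H3K9me2 lists 7420 to 13766. The lists carry no read counts, so the depth behind a peak is unknown and a missing peak means that none was called. The library set marked SSTE100 in the peak names, with 1 H3K4me3 list of each genotype and temperature, called more of the 277 sites in lin-15B and lin-35 than the other set did. The wild-type list with the most peaks, 26 °C replicate 1 with 7424, belongs to that set and called 65 of the 277 sites. No pair of lists was identical.

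Of the 277 sites, 118 were gained in all 3 mutants, 98 in lin-15B and lin-35, 43 in lin-15B and lin-37, and 18 in lin-35 and lin-37. Over all 10328 sites, the share gained was 6.09% for lin-15B, 3.27% for lin-35 and 2.43% for lin-37, so lin-15B had the longest list, and 370 sites were gained in lin-15B alone. In single lists the 277 sites were called as follows. The lin-15B lists called 191 and 274 at 20 °C (replicates 1 and 2, the order used throughout) and 236 and 271 at 26 °C. The lin-35 lists called 249 and 198 at 20 °C and 229 and 249 at 26 °C. The lin-37 lists called 169 and 141 at 20 °C and 244 and 243 at 26 °C, so both lists at the higher temperature called more than both at the lower one. Wild-type lists called 4 and 10 at 20 °C and 65 and 8 at 26 °C.

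**Figure D1:**
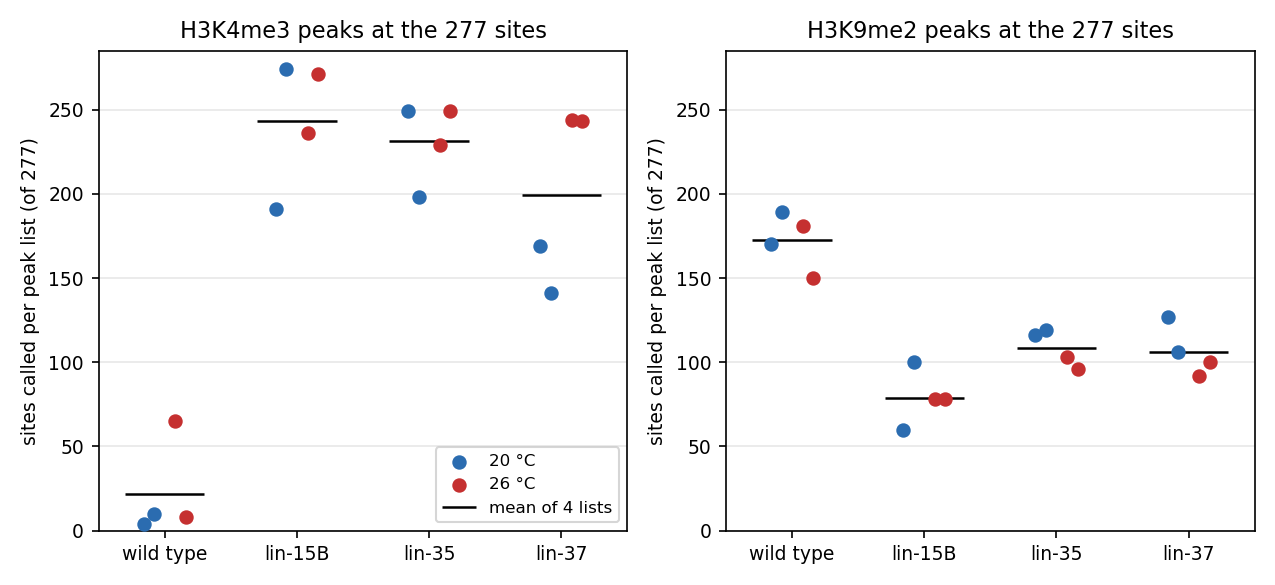
Number of the 277 sites called in each peak list, for H3K4me3 (left) and H3K9me2 (right), by genotype; points are single lists coloured by temperature and bars are means of 4 lists. Wild type has the fewest H3K4me3 calls (4 to 65) and the most H3K9me2 calls (150 to 189), and no wild-type list overlaps a mutant list in either mark. The H3K4me3 separation is built in, because the rule chose the sites by those calls. The rule did not use H3K9me2.

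The wild-type limit of the rule fell unevenly on the sites. No wild-type list called 190 of them, and 1 list called the other 87. Among sites in at least 3 of 4 lists of 2 or more mutants, the median fold over mutant lists was 7.43 with no wild-type list, 3.30 with 1, 3.16 with 2, 3.31 with 3 and 12.2 with all 4. The 87 sites with 1 wild-type list were therefore close in fold to the 179 sites just outside the rule. On the mutant side, 104 sites gained in exactly 2 mutants had 3 of 4 lists in at least 1 of them, with a median fold of 3.16. The 230 sites just outside, gained in 1 mutant and called in 2 of 4 lists of another, had 3.08. At the other end, 60 sites were called in all 12 mutant lists and in no wild-type list, with a median fold of 12.9. With 1 list fewer, wild type 26 °C replicate 1 left out, the rule kept 450 sites.

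Peak height varied widely among the sites. The fold (enrichment of the immunoprecipitate over input at the peak summit, as the authors' caller gave it), averaged over the mutant lists with a peak, ran from 2.22 to 31.5 with a median of 6.15 and quartiles of 3.37 and 11.4. By mutant, lin-15B had a median of 5.44 over the sites' mean folds, lin-35 had 5.56 and lin-37 had 6.46. Sites gained in all 3 mutants stood higher, at 8.54, 9.37 and 8.98 in the same order, than sites gained in lin-15B and lin-35 at 4.91, 4.92 and 4.84. The 43 sites of lin-15B and lin-37 had medians of 3.11, 2.28 and 3.04, and the 18 of lin-35 and lin-37 had 2.79, 3.004 and 3.10. A fold enters only where a peak was called.

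Folds also depended on the list. The median fold of the sites was 4.85 and 5.36 at 20 °C and 7.75 and 5.75 at 26 °C in lin-15B. It was 3.96 and 5.06, then 6.74 and 9.95, in lin-35, and 4.46 and 2.98, then 10.5 and 5.87, in lin-37. The 3429 sites called in all 16 lists, which served as a scale, had medians between 8.62 in lin-37 at 20 °C replicate 2 and 25.7 in lin-37 at 26 °C replicate 1. These lists were thus also the lowest and the highest at sites unrelated to the rule. Where a wild-type list did call one of the 277 sites, the median fold was 2.92 and 1.97 at 20 °C and 2.10 and 3.42 at 26 °C.

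The merged width of the sites had a median of 976 bp, with quartiles of 745 and 1257 bp. The median was 786 bp over all sites and 731.5 bp over sites gained in lin-15B alone. Merged width spans peaks of all lists, and these other sets need fewer lists, so the medians are not like for like. Sites in at least 3 of 4 lists of 2 or more mutants make a closer comparison. Their median was 968.5 bp with no wild-type list and 991 bp with 1, which are the sites here. It was 1011 bp with 2, 1107.5 bp with 3 and 1390.5 bp with all 4. The sites chosen by the rule were thus not wider than these, although wild-type peaks also add to a merged width. The widest chosen site, chrI:8979792-8984405 in the centre of the chromosome (build ce10, as are all coordinates), spanned 4614 bp but was weak. Its fold was 2.10, 3.70 and 2.44 in 3 lin-15B lists, 1.53, 2.53 and 3.42 in 3 lin-35 lists and 1.90 in 1 lin-37 list, and no wild-type list called it. The narrowest, chrV:3570803-3571082 on a left arm, spanned 280 bp, with folds of 2.75 to 4.94 in 8 mutant lists.

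Most of the sites lay on chromosome arms. On autosomal arms, taken as the outer 30% at each end, lay 174 sites, or 62.8% against 46.7% of all sites, of which 86 were on left and 88 on right arms. Chromosome centres held 81 (29.2% against 37.8%) and X held 22 (7.94% against 15.5%). Chromosome III held most, with 61, chromosome II 44, and chromosomes I, IV and V 50 each. Sites gained in lin-15B alone had nearly the same layout, with 68.9% on arms and 7.84% on X. The sites were scattered. The median distance to the nearest other one was 98115 bp, 32 lay within 10000 bp of another, and the nearest site called in all 16 lists was 6894 bp away at the median. A gene annotation in build ce10 was not used here, so sites are named by coordinates and no gene is assigned.

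H3K9me2, which the rule did not use, marked most of these sites in wild type and fewer of them in every mutant. H3K9me2 was called in at least 3 of 4 wild-type lists at 169 of the 277 sites, or 61.0%, against 25.0% of all H3K4me3 sites. Sites gained in lin-15B alone came near, at 53.5%. The share was 93 of 118 among sites gained in all 3 mutants, 52 of 98 for lin-15B and lin-35, 17 of 43 for lin-15B and lin-37, and 7 of 18 for lin-35 and lin-37. The share was above that of all sites in each zone. On arms 72.4% of the sites had wild-type H3K9me2 against 43.7% of all arm sites, in centres 41.98% against 9.78%, and on X 40.9% against 5.94%. For sites gained in lin-15B alone the shares were 69.0% on arms, 24.4% in centres and 3.45% on X.

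Single lists separated wild type from the mutants without overlap. Wild-type lists called H3K9me2 at 170 and 189 of the 277 sites at 20 °C and at 181 and 150 at 26 °C. The lin-15B lists called it at 60 and 100, then 78 and 78, and the lin-35 lists at 116 and 119, then 103 and 96. The lin-37 lists called it at 127 and 106, then 92 and 100, so the highest mutant list stood below the lowest wild-type one. As shares of the 277 sites, the means were 62.3% ± 6.10 in wild type, 28.5% ± 5.91 for lin-15B, 39.2% ± 3.92 for lin-35 and 38.4% ± 5.41 for lin-37 (SD, n = 4 lists each). Over all 10328 sites the same means were 27.3% ± 2.73, 24.3% ± 5.32, 23.8% ± 3.04 and 23.6% ± 2.29 (SD, n = 4), and these groups overlapped.

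H3K9me2 was counted as lost in a mutant where at least 3 wild-type lists and at most 1 of its 4 lists called it. Of the 169 sites with wild-type H3K9me2, 88 (52.1%) lost it in lin-15B against a background of 23.3%, 59 (34.9%) in lin-35 against 15%, and 54 (31.95%) in lin-37 against 14.4%. The background counts all 2586 H3K4me3 sites with wild-type H3K9me2. All 3 mutants had lost it at 38 sites (22.5% against 8.0%), and no mutant had at 69 (40.8% against 70.3%). Sites gained in lin-15B alone lost H3K9me2 in lin-15B in 34.3% of cases, in lin-35 in 9.60% and in lin-37 in 12.6%. The 3 comparisons share the wild-type lists. Without wild type 20 °C replicate 2 the lost counts were 62 for lin-15B, 37 for lin-35 and 33 for lin-37, and without wild type 26 °C replicate 1 they were 62, 38 and 32, since all 3 remaining wild-type lists then had to call a site.

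**Figure D2:**
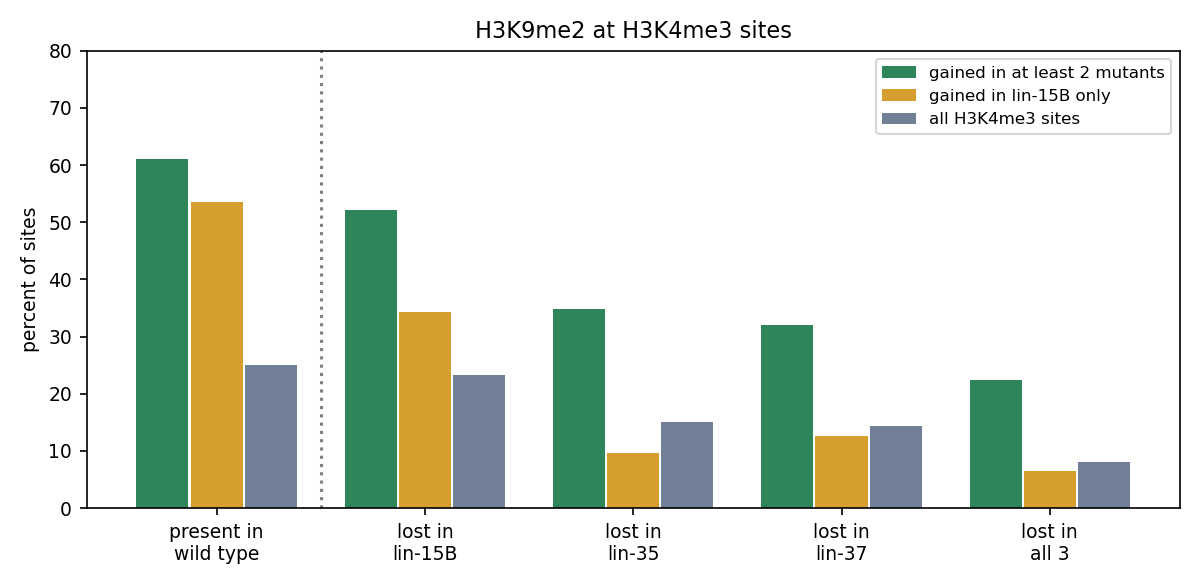
Percent of sites with H3K9me2 in at least 3 of 4 wild-type lists (left of the dotted line) and, of those, the percent that lost it in each mutant or in all 3 (right), for the 277 sites gained in at least 2 mutants, 370 gained in lin-15B alone and all 10328 sites. The 277 sites have the tallest bar in every group, from 61.0% present in wild type down to 22.5% lost in all 3.

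A per-site test found H3K9me2 lower in the mutants at 13 of the 277 sites. Fisher's exact test (two-sided, called against not called, 4 wild-type against 12 mutant lists, Benjamini-Hochberg over the 2066 sites with 3 to 13 calls of 16) called 56 sites lower, 2.71% of those tested, and none higher (0.0%). At an unadjusted p of at most 0.05 it called 233 lower and 9 higher. Of the 277 sites 117 were tested, 13 were lower and none was higher (44 lower and 0 higher unadjusted). Of the 105 tested sites gained in lin-15B alone, 2 were lower. Every one of the 13 had H3K9me2 in all 4 wild-type lists and in no mutant list, as 0.542% of all sites did (Fisher's exact p = 0.00055, adjusted p = 0.0203), the one pattern that passed. Leaving out wild-type lists 20 °C replicate 1, 20 °C replicate 2 or 26 °C replicate 1 left 0 calls, and leaving out 26 °C replicate 2 gave 22.

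Of these 13 sites, 11 were gained in all 3 mutants. The H3K4me3 folds at the tallest, chrIV:13450139-13451622 (1484 bp, right arm), were 15.9 and 19.6 at 20 °C, then 27.2 and 19.8 at 26 °C in lin-15B. They were 20.6 and 15.04, then 25.0 and 37.9, in lin-35, and 17.6 and 17.3, then 40.2 and 27.99, in lin-37. No wild-type list had an H3K4me3 peak there, while the wild-type H3K9me2 peaks covered 495, 628, 682 and 354 bp of the site. The mutants overlapped one another in fold, with means of 20.6 ± 4.73, 24.6 ± 9.73 and 25.8 ± 10.8 (SD, n = 4).

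A central site of chromosome III, chrIII:5155494-5157222 (1729 bp), had the same form. Its H3K4me3 folds were 13.9, 23.8, 23.1 and 21.2 in lin-15B, 16.8, 15.9, 19.5 and 36.1 in lin-35, and 21.98, 13.7, 41.2 and 22.3 in lin-37. All 12 mutant lists had an H3K4me3 peak and no wild-type list did, and wild-type H3K9me2 covered 387, 450, 498 and 294 bp. On X, chrX:8147351-8148095 (745 bp) had folds of 15.7, 20.2, 21.6 and 17.4 in lin-15B, 19.5, 23.8, 20.5 and 33.1 in lin-35, and 19.8, 15.6, 36.1 and 23.1 in lin-37. Its wild-type H3K9me2 covered 326, 499, 373 and 322 bp. Mutant folds at both sites, 13.7 to 41.2, lay in the same range as at the tallest of the 13.

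A single weak wild-type H3K4me3 peak, with a fold of 1.99 in 26 °C replicate 1, was present at chrIV:13636559-13637920 (1362 bp, right arm). There the mutant folds were 11.8, 17.2, 29.5 and 18.1 in lin-15B, 17.5, 19.8, 19.8 and 30.9 in lin-35, and 22.9, 11.6, 33.2 and 24.1 in lin-37. Every mutant list lay above the wild-type one. Wild-type H3K9me2 covered 596, 657, 507 and 443 bp of this site.

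Mid-height sites of the 13 were chrV:11554123-11555141 (1019 bp, centre), chrII:6893395-6894664 (1270 bp, centre), chrII:14453134-14454836 (1703 bp, right arm) and chrX:10475575-10476632 (1058 bp). At chrV:11554123-11555141 the mean fold was 8.72 ± 3.11 for lin-15B, 16.3 ± 8.09 for lin-35 and 17.3 ± 10.2 for lin-37 (SD, n = 4), and lin-35 at 26 °C replicate 2 reached 28.5 against 12.0 to 12.5 in the other lin-35 lists. At chrII:6893395-6894664 the means were 14.1 ± 3.19, 13.5 ± 7.30 and 14.1 ± 7.68 in the same order (SD, n = 4). At chrX:10475575-10476632 they were 13.6 ± 2.34, 11.1 ± 4.13 and 14.1 ± 5.67 (SD, n = 4). At chrV:11554123-11555141 every lin-15B list (4.28 to 11.1) lay below every lin-35 list, while at the sites on II and X the mutants overlapped.

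Lower peaks were found at the rest. The site chrIII:13289478-13291002 (1525 bp, right arm) had the widest wild-type H3K9me2 of the 13, covering 1118, 1059, 660 and 754 bp, and folds of 3.23 to 7.08 in 3 lin-15B lists, 4.75 to 15.99 in lin-35 and 3.65 to 19.6 in lin-37. The sites chrI:9294050-9295105 (1056 bp) and chrIV:6423080-6423895 (816 bp), both central, had mean folds of 4.93 ± 1.33 and 5.14 ± 1.89 in lin-15B, 7.55 ± 5.17 and 6.58 ± 2.19 in lin-35, and 8.18 ± 6.21 and 6.64 ± 3.08 in lin-37 (SD, n = 4). H3K4me3 was not gained in every mutant at 2 of the 13, although no mutant list called H3K9me2. At chrII:7667735-7668705 (971 bp, centre) lin-37 had peaks only at 26 °C, with folds of 9.60 and 3.48, and at chrV:16401311-16402312 (1002 bp, right arm) lin-15B had peaks in 2 lists, with folds of 2.998 and 2.58, against 6.04 to 18.8 in lin-35.

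**Figure D3:**
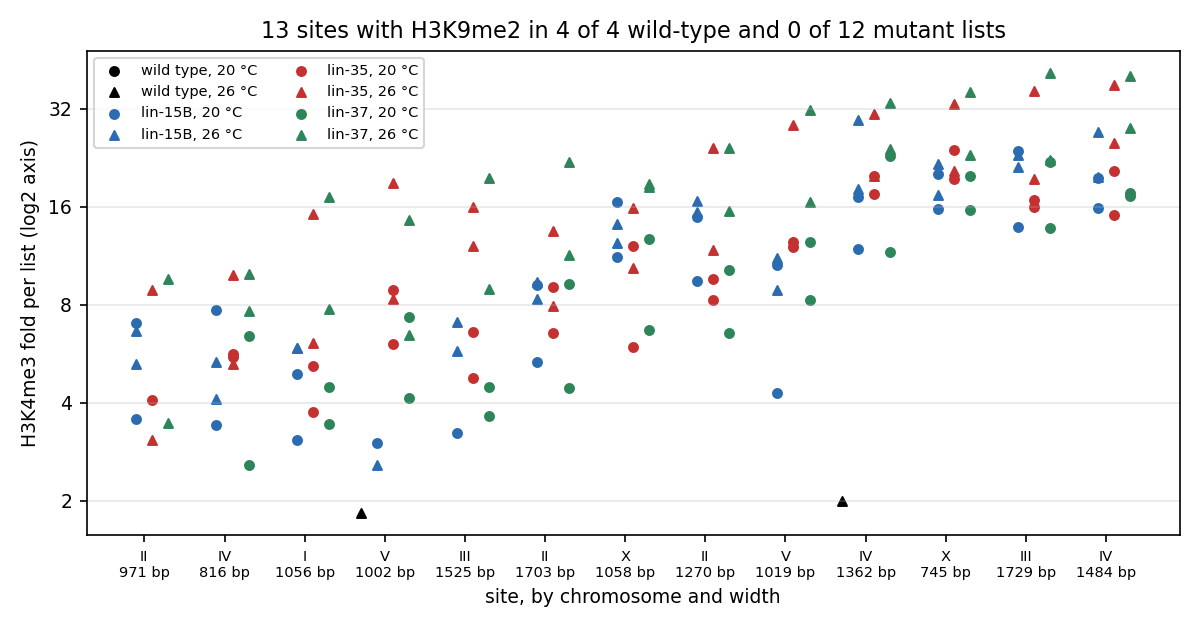
H3K4me3 fold in each list with a peak (log2 axis) at the 13 sites that had H3K9me2 in 4 of 4 wild-type and 0 of 12 mutant lists, ordered by mean mutant fold and labelled with chromosome and width; circles are 20 °C and triangles 26 °C. Wild type (black) has a peak at 2 sites only, both with folds under 2, and lin-37 at 26 °C reaches 41.2, the highest fold shown.

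Within lin-35 and within lin-37, the share of sites that lost H3K9me2 was higher where H3K4me3 was gained than where it was not. A site not gained in a mutant had peaks in fewer than 3 of its 4 lists, so H3K4me3 was not always absent there. H3K4me3 was also gained at sites that kept H3K9me2, and H3K9me2 was lost at some sites that fell short of the limit for a gain. Of the 152 sites with wild-type H3K9me2 that gained H3K4me3 in lin-35, 58 (38.2%) lost H3K9me2 there, against 1 of the 17 that did not gain it. In lin-37 the counts were 47 of 117 (40.2%) against 7 of 52 (13.5%). In lin-15B they were 85 of 162 (52.5%) against 3 of 7 (42.9%), too few sites for a contrast. These splits rest on the calls that chose the sites and are given without a test. The clearest single case was chrIII:7103588-7104432 (845 bp, centre), gained in lin-15B and lin-37. Its folds were 4.85, 9.12, 14.9 and 10.3 in lin-15B and 3.59, 2.04, 12.2 and 7.46 in lin-37, and no lin-35 list had a peak. H3K9me2 there covered 198, 323, 236 and 129 bp in wild type and 309, 316, 419 and 392 bp in lin-35, and was called in no lin-15B or lin-37 list.

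Other sites did not match in this way. At chrIV:12639916-12640969 (1054 bp, right arm) the 3 mutants overlapped in H3K4me3 fold, at 21.5 ± 3.34 for lin-15B, 23.4 ± 5.37 for lin-35 and 23.4 ± 10.7 for lin-37 (SD, n = 4). H3K9me2 was called in no lin-15B list there but in all 4 lists of lin-35 and of lin-37, where it covered 277 to 356 bp and 241 to 309 bp against 342 to 662 bp in wild type. At chrV:17154962-17156060 (1099 bp, right arm), gained in lin-35 and lin-37, H3K9me2 was called in no lin-15B list, in 1 lin-35 list and in all 4 lin-37 lists. Its H3K4me3 folds were 2.38 and 4.43 in 2 lin-15B lists, 9.83 to 25.5 in lin-35 and 3.49 to 19.8 in 3 lin-37 lists.

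The tallest of the 277 sites, chrIV:193813-195031 (1219 bp, left arm), had a fold of 33.96 and 29.2 at 20 °C and 54.9 and 26.6 at 26 °C in lin-15B. It was 17.7 and 17.3, then 39.5 and 37.6, in lin-35, and in lin-37 no list at 20 °C had a peak while those at 26 °C had 33.99 and 23.9. H3K9me2 covered 418, 537, 441 and 246 bp in wild type and was called in no lin-15B list, in both lin-35 lists at 20 °C (430 and 458 bp) but neither at 26 °C, and in all 4 lin-37 lists (336 to 546 bp). The second tallest, chrIV:13686556-13687561 (1006 bp, right arm), had means of 25.0 ± 4.97 for lin-15B, 24.5 ± 8.18 for lin-35 and 24.4 ± 9.20 for lin-37 (SD, n = 4). Only the 2 wild-type lists at 20 °C called H3K9me2 at it.

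At 60 sites H3K9me2 was called in at least 3 of 4 lists of all 4 genotypes. Both marks were thus called at the same site in each mutant that gained H3K4me3 there. That was all 3 mutants at 24 of the 60. In whole larvae, marks on the same nucleosomes and marks in different cells cannot be told apart. The length covered by H3K9me2 at these 60 sites had a median of 815.6 bp in wild type. Relative to wild type at the same site, the median ratio was 0.804 in lin-15B, with 50 of 60 sites shorter, 0.954 in lin-35 and 0.977 in lin-37. Over all 1538 sites kept in the 4 genotypes, the ratios were 0.941, 0.996 and 0.974 and 58.9% were shorter in lin-15B.

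The tallest of the 60 was chrIII:1411877-1414547 (2671 bp, left arm), gained in lin-15B and lin-37. Its folds were 34.3 and 27.97, then 67.0 and 30.7, in lin-15B and 7.24 and 6.41, then 44.9 and 17.6, in lin-37, and lin-35 had 4.36 and 5.19 at 26 °C alone. H3K9me2 covered 1250 to 1503 bp in wild type, 1025 to 1484 bp in lin-15B, 1275 to 2208 bp in lin-35 and 1197 to 1493 bp in lin-37, so the genotypes overlapped. At chrIV:1599238-1602568 (3331 bp, left arm) mean folds were 22.1 ± 8.30 for lin-15B, 20.1 ± 9.06 for lin-35 and 21.3 ± 9.61 for lin-37 (SD, n = 4). H3K9me2 there covered 1715 to 3331 bp in wild type and less in lin-15B, at 486 to 1028 bp, and in lin-37, at 126 to 1046 bp, while lin-35, at 1000 to 2196 bp, overlapped wild type.

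At chrI:114059-115274 (1216 bp, left arm) H3K9me2 covered at least 1197 bp of the site in every list but lin-15B 20 °C replicate 1, where it covered 512 bp. The H3K4me3 means there were still 19.3 ± 5.85 for lin-15B, 18.3 ± 7.67 for lin-35 and 22.2 ± 11.8 for lin-37 (SD, n = 4). At chrIII:3499714-3500801 (1088 bp, left arm) lin-37 had H3K4me3 at 26 °C alone, with folds of 24.8 and 18.5, and its H3K9me2 covered 1087 or 1088 bp at both temperatures. In lin-35, with H3K4me3 folds of 10.2 to 31.2, it covered 178 to 797 bp, below the 981 to 1088 bp of wild type. The lin-15B lists, with H3K4me3 folds of 16.9, 22.5, 31.2 and 21.9, had H3K9me2 over 54, 547, 371 and 1088 bp, so lin-15B overlapped wild type.

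H3K9me2 was called in no list of any genotype at 72 of the 277 sites (26.0%, against 53.7% of all sites), and in all 16 lists at 42 (15.2% against 10.2%). H3K4me3 folds were lowest at the 72. The median mean fold was 3.14 there, 4.71 at the 36 sites with some H3K9me2 but fewer than 3 wild-type lists, 7.12 at the 60 that kept it, 9.34 at the 62 that lost it in 1 or 2 mutants and 11.7 at the 38 that lost it in all 3. The remaining 9, neither lost nor kept by these limits, had 10.9. In every one of the 12 mutant lists the median fold was higher at the 38 than at the 72, from 6.62 against 2.17 in lin-37 at 20 °C replicate 2 to 20.5 against 3.16 in lin-37 at 26 °C replicate 1. Of the 38, 84.2% were gained in all 3 mutants, against 23.6% of the 72, and sites gained in all 3 had higher folds. H3K9me2 state and gained group were not separated here, and the 12 lists also chose the sites. The state also went with place. Of the 60 that kept H3K9me2, 53 lay on arms, against 20 of the 38 and 25 of the 72.

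**Figure D4:**
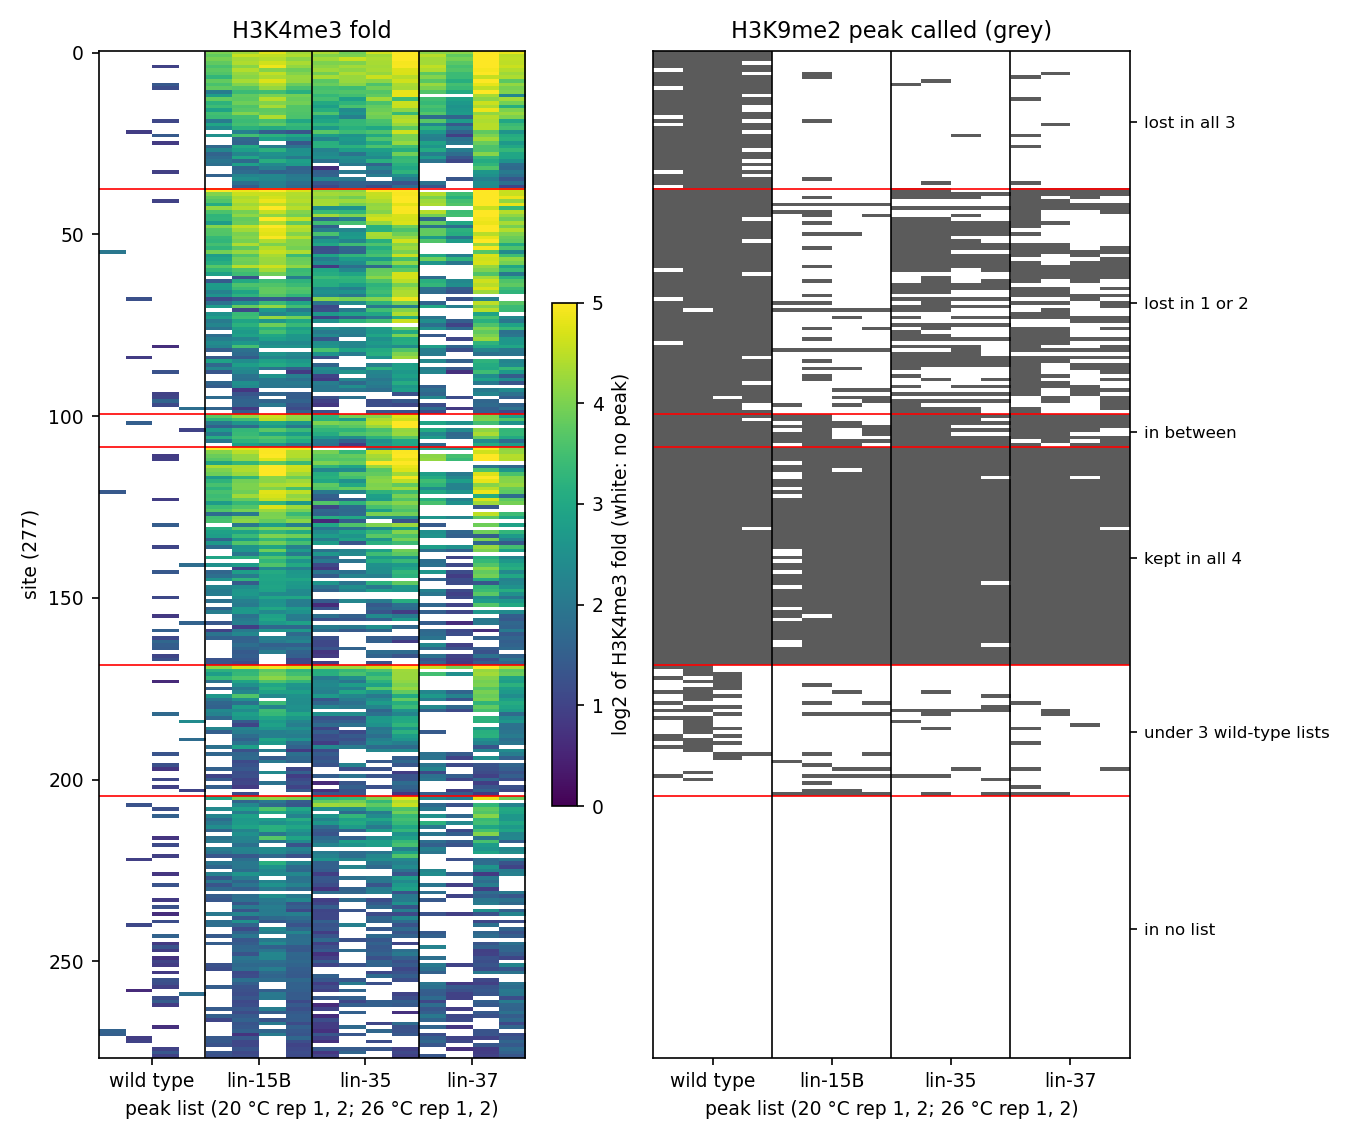
The 277 sites (rows) in 16 lists of each mark (columns, by genotype, temperature and replicate), with log2 H3K4me3 fold on the left and H3K9me2 calls on the right; red lines divide 6 groups by H3K9me2. From top to bottom the groups are 38 sites that lost H3K9me2 in all 3 mutants, 62 in 1 or 2, 9 in between, 60 that kept it, 36 with under 3 wild-type lists and 72 with none, and the brightest H3K4me3 rows lie in the upper groups.

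Among the 72 sites without H3K9me2 the tallest was chrI:5299857-5301022 (1166 bp, centre), with folds of 7.55, 15.2, 17.6 and 16.1 in lin-15B, 9.44, 10.0, 16.5 and 27.9 in lin-35, and 5.33, 4.47, 28.5 and 14.6 in lin-37. Next came sites that were taller in lin-35 than in the other mutants. At chrII:4998997-4999874 (878 bp, centre) lin-35 had 13.7, 14.9, 10.2 and 21.1, lin-15B had 3.11, 4.05 and 2.77 in 3 lists, and no lin-37 list had a peak. At chrIII:10642774-10643502 (729 bp, right arm) lin-35 had 19.5, 18.8, 13.5 and 24.0 against 2.52 to 4.98 in 3 lin-15B lists and 2.38 to 9.95 in lin-37. The lin-35 lists lay above all lists of the other mutants at both sites. At chrII:2017194-2017706 (513 bp, left arm) the mutants overlapped, at 8.08 ± 3.06 in lin-15B (SD, n = 4), 8.26 ± 3.35 in lin-35 (SD, n = 4) and 8.56 ± 4.80 in 3 lin-37 lists.

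Most mutant H3K4me3 summits at the sites with wild-type H3K9me2 lay inside H3K9me2 peaks. The summit of the mutant H3K4me3 peak fell within the H3K9me2 peaks of 3 or 4 wild-type lists in 66.9% to 80.4% of cases, depending on the mutant list, and within none in 6.77% to 12.3%. Over all sites with wild-type H3K9me2 and a peak in the same mutant lists, the shares were 38.3% to 53.3% and 29.6% to 42.3%. These sites were picked for an overlap with H3K9me2, and the difference was not tested. Wild-type H3K9me2 peaks at these 169 sites were narrow, with a median width of 666.8 bp against 1097 bp over all 2586 sites and 1174 bp at sites gained in lin-15B alone.

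The 22 sites on X included 10 gained in all 3 mutants, 6 in lin-15B and lin-35, 6 in lin-35 and lin-37 and none in lin-15B and lin-37. Besides the X sites above, chrX:17500877-17502289 (1413 bp) had folds of 11.5, 13.3, 18.6 and 36.5 in lin-35 against 2.90, 3.32, 6.33 and 4.01 in lin-15B, and no lin-37 list had a peak. Its H3K9me2 was called in 4 lists of wild type, of lin-15B and of lin-37, and in lin-35 at 20 °C (640 and 787 bp) but not at 26 °C. At chrX:8410413-8411174 (762 bp) lin-37 had peaks only at 26 °C, of 18.5 and 13.5, while lin-15B ranged from 9.26 to 13.1 and lin-35 from 8.58 to 19.2. The sites chrX:252268-252963 (696 bp) and chrX:9994212-9995129 (918 bp) were lower, with mutant folds of 3.07 to 15.8 and of 3.24 to 16.98.

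H3K4me3 calls by temperature are given as a description, because the rule used the same calls. Both 26 °C lists of lin-37 called 227 of the 277 sites and both 20 °C lists called 129. At 60 sites, 21.7% of the 277, both lin-37 lists at 26 °C and neither at 20 °C had a peak, against 6.85% of all sites, and the reverse occurred at 0 against 0.891%. In lin-15B the counts were 1 and 1 (1.11% and 0.358% of all sites) and in lin-35 4 and 3 (2.08% and 1.56%). A site gained in a mutant has peaks there at both temperatures, so such a split was open to only the 98 sites not gained in lin-37, 43 not gained in lin-35 and 18 not gained in lin-15B. The counts therefore cannot be compared between mutants or with all sites. All 60 belonged to the sites gained in lin-15B and lin-35.

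The rule requires peaks of lin-15B and lin-35 at both temperatures at those 60 sites. The lin-15B lists called 41 and 60 at 20 °C and 58 and 60 at 26 °C, and the lin-35 lists 57 and 47, then 58 and 60. The median fold of lin-37 at 26 °C was 9.47 and 5.09. H3K9me2 was called at 36 and 42 of the 60 in wild type at 20 °C and 41 and 28 at 26 °C, and in lin-37 at 31 and 27 at 20 °C and 20 and 23 at 26 °C. In lin-37 the peak totals were 6090 and 5421 at 20 °C, then 6842 and 7083 at 26 °C, and with every list cut to the length of the shortest the count was 52, against 3.49% of all sites. Without lin-37 20 °C replicate 1 the count was 99.

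The fold itself was compared between temperatures in the 12 mutant lists. The limma fit used log2 fold centred in each list on the sites called in all 16 lists, with genotype and library set as terms. Of 4789 sites tested, 140 (2.92%) were higher at 26 °C and 372 (7.77%) lower by limma's adjusted p of at most 0.05. Of the 277 sites 236 had enough peaks to be tested, and 38 were higher and 5 lower. Their median difference was 0.13 on the log2 scale, against -0.13 over all sites. With no centring the median over all sites was 0.44 and that of the 236 was 0.69, with 112 of them higher and 0 lower, against 1255 and 20 of all sites. Without centring the calls over all sites thus turned from mostly lower to mostly higher, and 2 of the 5 sites called lower changed sign. Quantile normalisation gave 1 higher and 0 lower, against 7 and 0 of all sites with a median of 0.067. With replicate number in place of library set 21 were higher and 1 lower, against 81 and 144 of all sites. The 38 sites called higher kept their sign under each of these 3 alternatives, which reuse the lists that chose them. Within 1 library set alone the counts were 0 and 0 for SSTE100, and 1 and 0 for the other.

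By group, 25 of the 118 sites gained in all 3 mutants were higher at 26 °C and 3 lower, 10 and 1 of the 71 tested sites of lin-15B and lin-35, 1 and 0 of the 32 of lin-15B and lin-37, and 2 and 1 of the 15 of lin-35 and lin-37. The size of the called differences ran from 0.44 to 1.75 on the log2 scale for the 38 and from -1.02 to -0.57 for the 5. Leaving out 1 of lin-35 20 °C replicate 1, lin-35 26 °C replicate 2, lin-37 20 °C replicate 1 or lin-37 20 °C replicate 2 lowered the number of higher calls to 15 or 22. Counts of lower calls were 0 without lin-35 20 °C replicate 1, 20 °C replicate 2 or 26 °C replicate 2, 2 or 3 without lin-15B 20 °C replicate 1, 20 °C replicate 2, 26 °C replicate 1, lin-37 20 °C replicate 2 or lin-37 26 °C replicate 1, and 9 without lin-15B 26 °C replicate 2.

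**Figure D5:**
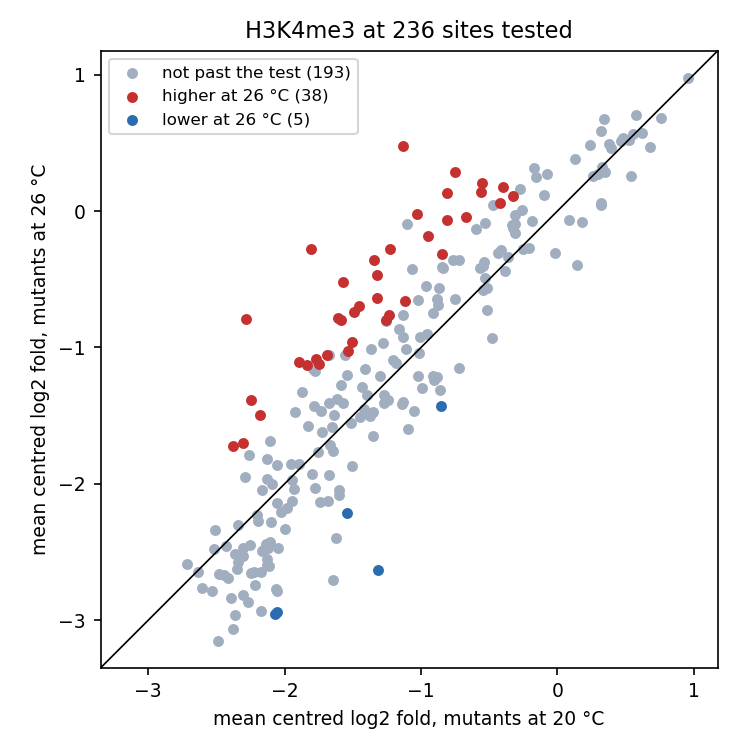
Mean centred log2 H3K4me3 fold of the mutant lists at 20 °C (x axis) and 26 °C (y axis) for the 236 sites tested; the line marks equality. The 38 sites called higher at 26 °C lie above the line, 5 called lower lie below it, and 193 did not pass the test. With quantile normalisation 1 site was called higher and 0 lower, and with no centring 112 and 0.

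The 3 sites with the smallest p had higher folds at 26 °C than at 20 °C in each mutant with peaks at both temperatures. At chrV:17145265-17146133 (869 bp, right arm) the fold was 9.82 and 14.0 at 20 °C and 32.9 and 23.7 at 26 °C in lin-15B. It was 3.26 and 4.38, then 25.1 and 25.4, in lin-35, and 3.12 in 1 list, then 29.9 and 14.9, in lin-37. No mutant overlapped between temperatures, and the centred difference was 1.75 ± 0.25 on the log2 scale (SE, limma adjusted p = 0.00249). H3K9me2 there was called in 3 wild-type lists, in both lin-35 lists at 20 °C (809 and 627 bp) and 1 lin-37 list at 20 °C (162 bp), and in no mutant list at 26 °C.

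At chrIII:4175287-4176960 (1674 bp, centre) the fold was 4.62 and 7.62, then 13.9 and 11.9, in lin-15B, 5.81 and 5.91, then 10.9 and 21.02, in lin-35, and 3.39 and 2.46, then 19.3 and 9.48, in lin-37. The temperatures again did not overlap, with a difference of 0.99 ± 0.14 (log2, SE, limma adjusted p = 0.00222). H3K9me2 was called in both lists at 20 °C and neither at 26 °C in lin-35 and in lin-37, in no lin-15B list and in all 4 wild-type lists.

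At chrV:19697324-19698200 (877 bp, right arm) the fold was 3.42 and 4.08, then 15.9 and 10.5, in lin-15B, and 3.03 and 3.37, then 15.7 and 15.1, in lin-35. In lin-37 it was 23.0 and 10.7 at 26 °C with no peak at 20 °C, and the difference was 1.55 ± 0.19 (log2, SE, limma adjusted p = 0.00177). Here H3K9me2 was called in all 16 lists. The first of these sites lies within 10000 bp of chrV:17154962-17156060, so both of these neighbours on the right arm of V were called higher at 26 °C, the second by 0.89 ± 0.20 (log2, SE, limma adjusted p = 0.0263).

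H3K9me2 at 26 °C was missing at some of the named sites. In lin-35, 10 of the 108 sites with H3K9me2 in both 20 °C lists had it in neither 26 °C list (9.26%), against 9.07% over all sites. In lin-37 it was 13 of 98 (13.3%) against 10.7%, in lin-15B 5 of 57 (8.77%) against 4.33%, and in wild type 6 of 165 (3.64%) against 3.81%. Among the 38 sites called higher in H3K4me3 at 26 °C it was 4 of 20 in lin-35 and 2 of 10 in lin-15B (20% each), 1 of 17 in lin-37 (5.88%) and 1 of 28 in wild type (3.57%). These counts carry no test.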

How the data were processed

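Chromatin immunoprecipitation sequencing of crosslinked, sonicated L1 extract was aligned to build ce10 with Bowtie 1.1.2, per the submitters' processing notes, which name MACS2 as the peak caller. Each library had its own list, called against an input library that lists of both marks often share, per the labels. The deposited H3K4me3 lists give each summit's fold (a ratio over input), its −log10 p and its −log10 q, computed by the authors' caller. For H3K9me2 the deposited lists hold score columns whose meaning could not be settled, used only to rank peaks within a list. Peak names give a q cutoff of 0.01, and 0.05 for H3K9me2 in lin-15B at 20 °C replicate 1. Per the labels' protocols, H3K4me3 was precipitated on an instrument and H3K9me2 by hand. Groups and replicate numbers come from the labels.

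Peaks were merged where they overlapped by 1 bp, and the highest summit gave a site's fold. Chromosome length for arms (outer 30%) was the highest peak end. Fisher's exact test per site used SciPy 1.17.1, with Benjamini-Hochberg adjustment over all sites with 3 to 13 H3K9me2 calls of 16. Temperature was fitted with limma 3.58.1 (R 4.3.3) on log2 fold, computed from the authors' ratio, for sites with peaks in at least 8 of 12 mutant lists and 3 at each temperature. A list without a peak at a site was left out of that site's fit as missing. In data simulated from these lists, Fisher's test of H3K9me2 over 2226 sites recovered 100% of 200 planted losses (4 of 4 wild-type to 0 of 12 mutant lists) with 0 false calls. That pattern has the smallest p the test can give, so its recovery was set in advance. Partial losses were not planted, and in the real lists only 56 sites had the pattern, so power is not measured. The temperature fit over 4789 sites recovered 87% of 200 planted changes of 1 on the log2 scale, with 14 false calls. That simulation kept the real pattern of missing peaks, so a low simulated fold did not make a peak missing. Recovery where weak peaks drop out was therefore not measured. The sites and groups were chosen with earlier results of these data known. Sites named are those with H3K9me2 in 4 of 4 wild-type and 0 of 12 mutant lists (the 12 highest by wild-type H3K9me2 rank), the highest folds overall (6), with H3K9me2 kept (4), with none (4), on X (6) and per pair of mutants (2 each), the widest and narrowest, and the 3 smallest temperature p. Alternatives were other overlaps, thresholds, equal peak numbers, scalings and single lists left out. Genes were not assigned and a germline gene list was not run, because an annotation in ce10 was not used here. Depth is unknown, so no counting interval is given. Samples of other marks were not analysed here.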

Additional observations from a re-analysis of the deposited data

Results flagged for a closer look

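Dixon's criterion for a group of 4 lists was applied to 62 groups and flagged 4, where chance flags about 1 group in 20. Wild-type H3K4me3 at 26 °C replicate 1 called 65 of the 277 sites, far from the next wild-type list with 10. This list also had the most wild-type peaks, 7424, and its part in the result was not tested beyond the count without it. At chrV:11554123-11555141, lin-35 at 26 °C replicate 2 had an H3K4me3 fold of 28.5, with 12.5 as the next list. The same list stood apart at chrIV:6423080-6423895, with 9.86 and then 5.65. At chrIII:1411877-1414547, lin-15B at 26 °C replicate 1 had 67.0, with 34.3 as the next list.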

How the results depend on the processing

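Requiring all 4 mutant lists and no wild-type list kept 122 sites, with median folds of 10.7, 10.1 and 10.3 (lin-15B, lin-35, lin-37). Leaving out single lists gave 208 to 450 sites, and 450 was reached without wild type 26 °C replicate 1. With all 4 wild-type and no mutant list required, H3K9me2 counted as lost at 48 sites for lin-15B, 25 for lin-35 and 21 for lin-37. Leaving out single lists gave 62 to 100, 37 to 70 and 32 to 75. In each of 20 settings the share lost was higher among the 277 sites than among all sites, in every mutant. Settings that left out a list of another mutant only repeat a mutant's main result, and all settings reuse the same lists. The Fisher calls numbered 0 when all 10328 sites were tested and 0 to 22 with a list left out. A wild-type list left out raises the smallest p to 0.0022. In the replicate block, permuted within replicate number, the Fisher calls numbered 13 (smallest adjusted p 0.0471, range over settings 0.0182 to 0.101). The numbers do not pair the lists: correlations of H3K4me3 fold in same-numbered lists ran from -0.671 to 0.345, over 0.1 in 10 of 28 pairs of groups. For library set, the term in the temperature fit, they ran from -0.298 to 0.671, over 0.1 in only 14 of 28. For temperature, higher and lower calls were 21 and 1 with the replicate block, 32 and 3 with no library set term, 112 and 0 with no centring, 1 and 0 with quantile normalisation, 17 and 1 over sites in all 12 lists, and 25 and 4 with mean summits. They were 0 and 0 in SSTE100 and 1 and 0 in the other set. In fits of each mutant alone, in the same order and added after seeing the data, they were 1 and 3, 1 and 0, and 0 and 0, with 4 lists each. Leaving out single lists gave 15 to 49 and 0 to 9. Sites with lin-37 H3K4me3 at 26 °C only, also added after seeing the data, numbered 67 to 99 with a list left out, 52 with equal peak numbers and 60 with 200 bp overlap. Causes of these shifts were not tested, except that fewer lists or sites enter some settings. With no centring 2 of the 5 lower temperature calls changed sign, and over all sites the calls went from 140 higher and 372 lower to 1255 and 20. All 38 higher calls kept their sign in each temperature setting that could fit them. They were chosen for a positive difference in the same lists, so the kept sign is no separate check. Without read counts, weak peaks near the callers' limit may be missed in some lists.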
